A study of Mus musculus with 60 samples.

Results

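The comparison described here set the livers of 3 Ftsj1-deficient male mice against those of 3 wildtype males, by sequencing polyadenylated RNA of the whole organ. Its members were all 55290 named genes of the liver poly-A comparison, of which 18263 carried an adjusted p and could be called. The 6 mice, labelled Ftsj1_DF and WT, were 4 months old, untreated and fed ad libitum. Per the labels they fall into 2 sets of brothers, of 2 and 4 mice, each with both genotypes in equal number, and all libraries carried batch label 1. Each library came from its own mouse. The allele that makes the mice deficient was not given in the sources used here. The same mice also gave brain, heart, kidney and spleen, and a further set of libraries depleted of ribosomal RNA, so that the series holds 60 samples.

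The X-linked gene Ftsj1 encodes an enzyme that adds a methyl group to ribose in the anticodon loop of several transfer RNAs. The liver stores and burns fat, makes most plasma proteins, clears drugs and hormones, and differs between the sexes because growth hormone is released in another rhythm in males than in females. Fasting turns on fatty acid burning through the nuclear receptor PPARα, while feeding turns on fat synthesis through SREBP1c, the product of Srebf1. The series' title names networks of non-coding RNA in the organs as its subject.

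The authors deposited a mean level over the 6 libraries, a log2 fold change (Ftsj1_DF minus WT), its standard error and an adjusted p per gene. Mean levels summed to 239528914 normalised counts. Whole reads per library were reconstructed for 9672 of 9718 genes searched. For each, a single set of 6 whole numbers, among the sets searched, met the printed digits of its mean level and fold change. Reconstructed values are given as normalised counts, that is reads divided by the library's size factor. Size factors, which measure relative depth, were 1.99, 1.61 and 0.414 for wildtype libraries 1, 2 and 3, and 1.49, 0.766 and 0.678 for deficient libraries 1, 2 and 3. These numbers only name the libraries, and no library could be tied to a mouse or litter. Deficient library 2 stood apart, with Pearson correlations to the others of 0.874 to 0.919 over 6151 reconstructed genes at a mean level of at least 100 (log2 scale), where pairs without it ran from 0.913 to 0.956. The 2 ranges overlap slightly. It also held most of the reads of exocrine pancreas genes. Values without it, or values per library, are given beside some of the results it touches.

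Ftsj1 itself fell to 8.79% of the wildtype level. It had 3231, 3883 and 3352 normalised counts in wildtype libraries 1, 2 and 3 and 307, 337 and 276 in deficient libraries 1, 2 and 3. The means were 3489 ± 347 and 306 ± 30.4 (SD, n = 3), and the groups lay far apart. The authors' deposited table gave a log2 fold change of -3.51 ± 0.15, with an adjusted p of 4.65e-115 by DESeq2. The table gives 1 value per gene, so which part of Ftsj1 the remaining reads cover is not known. The 20 tested genes closest to it on the X chromosome were looked up, 10 on each side by RefSeq order (GRCm38.p6). Of these, 7 had an unadjusted p under 0.05 (DESeq2). The whole liver comparison had 2122 such genes, drawn from the 18263 tested and 13734 more with a p but no adjusted p. The neighbours were all tested, so the 2 counts cover unlike sets. Slc38a5 had the highest log2 fold change of the 20, with 3.68 ± 1.17 by the authors' deposited table, and did not pass (adjusted p = 0.0656, DESeq2). Of the 20 neighbours 1 passed, against 2.29% of all tested genes. That gene was Cybb, which encodes a subunit of the phagocyte oxidase and rose with a log2 fold change of 0.80 ± 0.18 by the authors' deposited table (adjusted p = 0.000927, DESeq2).

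By the authors' deposited table, 419 genes or 2.29% of those tested passed an adjusted p of 0.05 (DESeq2's Wald test with Benjamini-Hochberg adjustment). Of these, 162 rose (0.887%) and 257 fell (1.41%). Changes were moderate, with a median absolute log2 fold change of 0.83 among the called genes, and 44 rose and 94 fell by at least 1 on that scale. The median over all tested genes was 0.01. Read against a t distribution with 4 degrees of freedom in place of the normal, the same statistics gave 0 genes after adjustment and 751 at an unadjusted p under 0.05. Mean levels of called genes ran from 24.8 normalised counts (Gm36855) to 3606814 (Scd1) by the authors' deposited table. Reads were reconstructed for 311 of the 419. In 302 of these (97.1%) the 3 deficient libraries did not overlap the 3 wildtype ones. The share was 16.2% of all 9672 reconstructed genes and 13.5% of the 9361 not called. Call and overlap rest on the same reads, so the separation of called genes, here and below, is a description and no separate support. The 9 with overlapping groups were 5730420D15Rik, Cd300ld5, Dnah5, Gm4714, Gm48968, Gm7096, Kcnk10, Rad51b and Reg2. Without deficient library 2, and with each gene's dispersion and the authors' smallest called statistic held, 212 of the 311 stayed past the threshold. Without wildtype library 2 the figure was 176, the lowest of the 6, and the number of reconstructed genes past the threshold was 185. Without any 1 library, 101 of the 311 stayed past the threshold in all 6 cases, and none of the 311 turned sign. Where a gene described by name in the following groups, with reconstructed reads, fell short of the threshold without 1 library, that library and the log2 fold change without it are given.

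**Figure D1:**
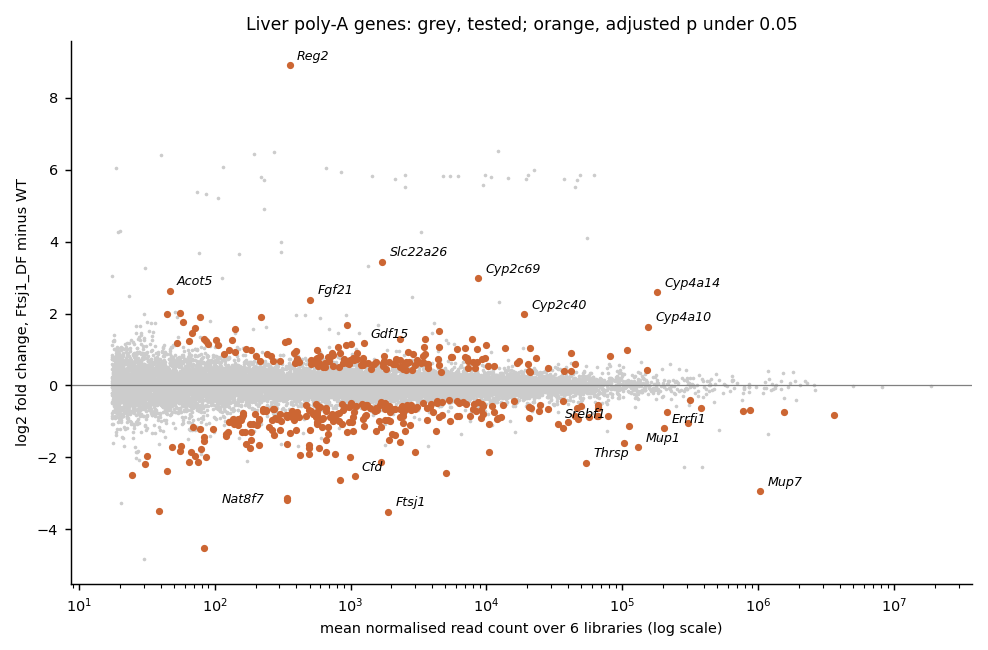
Mean normalised read count over the 6 liver libraries (x axis, log scale) against the deposited log2 fold change, Ftsj1_DF minus WT (y axis), for 18263 tested genes. The 419 called genes are orange. Fgf21, Cyp4a14 and Cyp2c69 lie above 2, Ftsj1 and Nat8f7 lie below -3, and Reg2 lies at the top.

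Genes that PPARα switches on during fasting were among the strongest rises. Of 41 tested members of that list, 8 rose, 1 fell and 32 did not pass, and the median log2 fold change was 0.25 against 0.01 over all tested genes. The largest change at high level was that of Cyp4a14, which hydroxylates the end of fatty acid chains and rose 6.02-fold. Its relatives Cyp4a10, Cyp4a31 and Cyp4a32 rose too. Their log2 fold changes by the authors' deposited table were 2.59 ± 0.24, 1.64 ± 0.24, 1.51 ± 0.24 and 1.03 ± 0.22, in the order Cyp4a14, Cyp4a10, Cyp4a31, Cyp4a32. The adjusted p (DESeq2) ran from 1.33e-23 for Cyp4a14 to 0.00032 for Cyp4a32. These genes are close copies of each other, and how reads fitting several of them were counted was not given in the sources used here.

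Acyl-CoA thioesterases release free fatty acids from coenzyme A. Of 12 tested genes whose symbols begin with Acot and a digit, 4 were called, 3 risen and 1 fallen, and the others did not pass. Over all tested genes 0.887% rose and 1.41% fell. Acot5 had 11.1, 11.2 and 19.3 normalised counts in the wildtype and 135, 39.1 and 63.4 in the deficient libraries, and Acot2 had 1659, 2088 and 1694 against 4609, 3167 and 2597. The groups did not overlap for either gene. The authors' deposited table gave log2 fold changes of 2.63 ± 0.52 for Acot5, 0.93 ± 0.21 for Acot2 and 1.14 ± 0.25 for Acot1. The fourth called gene, Acot11, fell (-0.99 ± 0.18 by the authors' deposited table). Cidec, which coats fat droplets and is counted in the PPARα list, fell as well, from 1194, 1449 and 1371 to 717, 733 and 945 normalised counts. Short of the threshold fell Acot2 without deficient library 1 (0.67).

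Other genes of the fasting response did not pass. Cpt1a, which carries fatty acids into mitochondria, and Ppara itself had log2 fold changes of 0.28 ± 0.17 and 0.11 ± 0.15 by the authors' deposited table, and neither passed. Pdk4, which shuts pyruvate out of the citrate cycle, had 1.25 ± 0.54 by the authors' deposited table (adjusted p = 0.28, DESeq2). Outside that list, of 27 genes of mitochondrial and peroxisomal beta-oxidation 1 rose, the peroxisomal fatty acid transporter gene Abcd2, and of 7 genes of ketone body metabolism 1 rose, the monocarboxylate carrier gene Slc16a1. Their log2 fold changes were 1.30 ± 0.27 and 0.67 ± 0.16 by the authors' deposited table.

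Fgf21, a hormone the liver secretes under fasting and other nutrient stress, rose 5.22-fold. It had 124, 182 and 188 normalised counts in the wildtype libraries and 779, 796 and 967 in the deficient ones. Every deficient library lay more than 4 times above the highest wildtype library. The means were 165 ± 35.6 and 847 ± 104 (SD, n = 3). Its log2 fold change was 2.38 ± 0.21 by the authors' deposited table (adjusted p = 3.81e-27, DESeq2), and 2.43 without deficient library 2. Because Fgf21 had the smallest adjusted p of all risen genes, the 250 bases before its start site are shown, from RefSeq on build GRCm38.p6, chr7:45615491-45615740, minus strand. Capitals mark a C/EBP-ATF response element TGATGNAA (read on the other strand), an E-box CACGTG and a TATA box TATAAA.
Fgf21: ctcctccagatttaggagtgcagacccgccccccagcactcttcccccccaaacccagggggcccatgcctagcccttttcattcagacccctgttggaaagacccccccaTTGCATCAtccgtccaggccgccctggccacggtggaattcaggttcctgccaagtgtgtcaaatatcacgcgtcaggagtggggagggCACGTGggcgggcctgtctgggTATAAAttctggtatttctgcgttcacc
Counted from the start site, these matches begin at -139, -50 and -28. Searched on both strands with all possible overlaps, the same motifs occur in 3.45%, 6.02% and 12.4% of all 32851 windows of this length, in the same order. The match is a description of the letters and was not tested for binding.

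**Figure D2:**
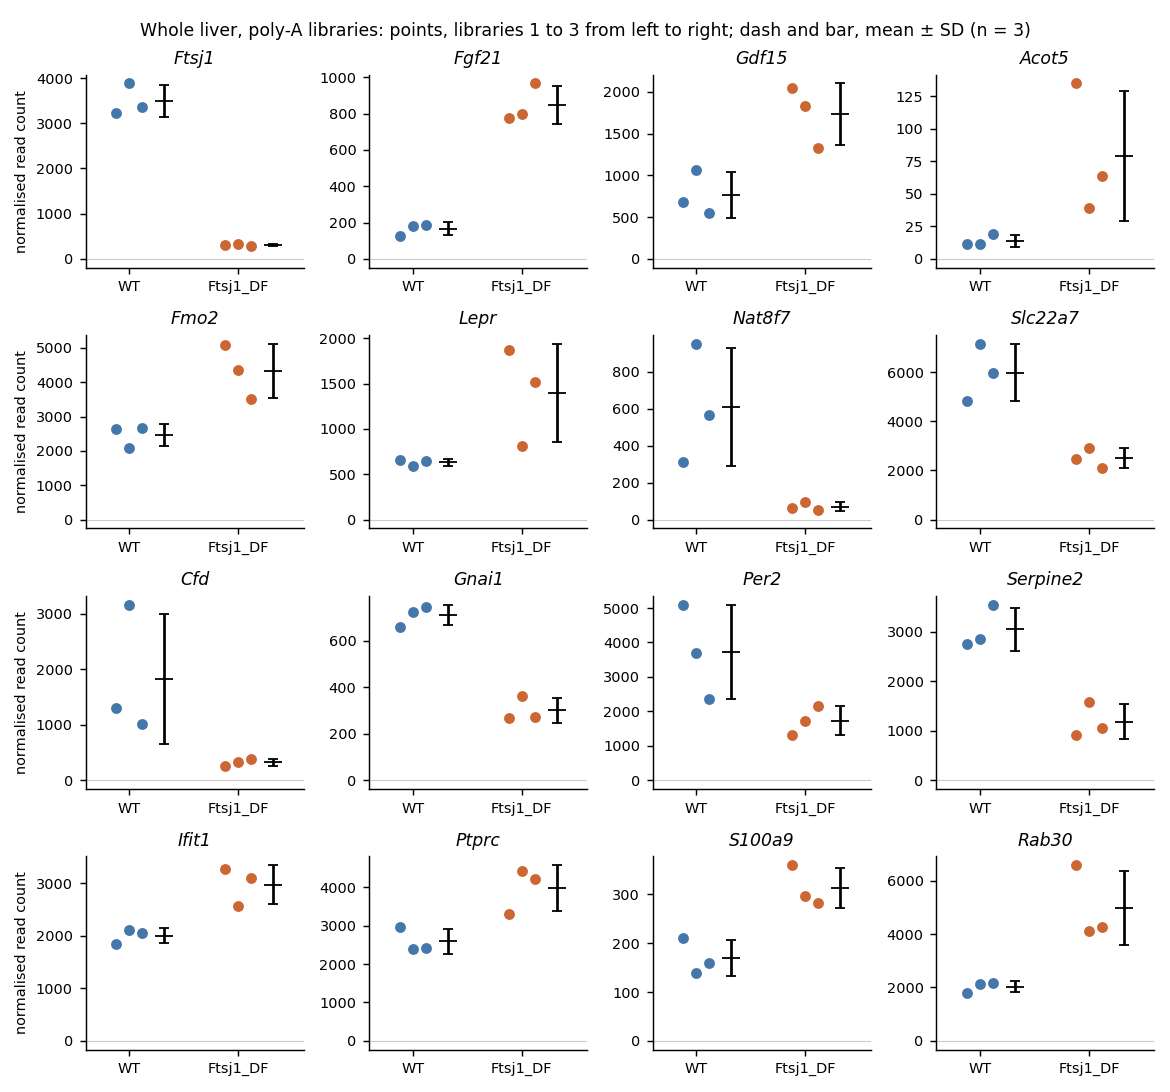
Normalised read counts (y axes, from 0) of 16 genes in the 3 wildtype (blue) and 3 deficient (orange) liver libraries, with the mean ± SD beside them. In all 16 panels the groups do not overlap, as for Fgf21 with 124, 182 and 188 in the wildtype and 779, 796 and 967 in the deficient libraries.

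The listed fat synthesis genes fell in the deficient livers where they passed. Of 27 tested members of the list of fatty acid and triglyceride synthesis, 7 fell, none rose and 20 did not pass. In this list 17 were below 0 with an unadjusted p under 0.05, and the median was -0.55. Gpat3, an acyltransferase of triglyceride synthesis outside the list, rose (0.91 ± 0.16 by the authors' deposited table). The lipogenic regulators Srebf1 and Thrsp fell to 47.9% and 22.6% of wildtype. Log2 fold changes by the authors' deposited table were -1.06 ± 0.21 and -2.15 ± 0.49, and the adjusted p were 0.00015 and 0.00182 (DESeq2). Acly and Acss2, which make cytosolic acetyl-CoA from citrate and acetate, fell by the authors' deposited table, with -1.12 ± 0.24 and -0.86 ± 0.19. Scd1, which puts the double bond into stearate and is one of the most abundant liver messages, had -0.83 ± 0.25 by the authors' deposited table. Gpam, the first enzyme of triglyceride assembly, and Pklr, the liver pyruvate kinase, had -0.85 ± 0.20 and -0.86 ± 0.21 by the authors' deposited table. Fasn, the fatty acid synthase itself, had -1.34 ± 0.44 by the same table and did not pass (adjusted p = 0.0769, DESeq2).

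Among genes outside that list, the lipase gene Pnpla5 had the lowest log2 fold change of all called genes. It had 267, 163 and 45.9 normalised counts in the wildtype and 2.69, 2.61 and 16.2 in the deficient libraries, and its log2 fold change was -4.52 ± 1.05 by the authors' deposited table. The wildtype libraries themselves spread widely, and wildtype library 3 lay near the deficient ones. Pnpla3, a related lipase of fat droplets, had 445, 296 and 94.1 against 44.3, 45.7 and 108, overlapped between groups and did not pass. Pnpla5 was chosen after its values were seen. Srebf1, Thrsp, Acly, Acss2, Scd1, Gpam, Pklr and Fasn had levels above those that could be reconstructed, so their values per library are not known.

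Genes of cholesterol synthesis lay lower with few calls. Lss, which closes the sterol ring, and Dhcr7, which catalyses a last step of the pathway, fell by the authors' deposited table, with -0.53 ± 0.16 and -0.71 ± 0.15. The other 23 of 25 tested members did not pass, though 24 of the 25 were below 0 and the median was -0.36. Cyp7a1, which starts bile acid synthesis, had a wide error (-0.16 ± 0.58 by the authors' deposited table), and Cyp39a1, an oxysterol hydroxylase, was the 1 of 24 bile acid genes that rose. Cyp39a1 had 3900.0, 2976 and 3039 normalised counts in the wildtype and 6285, 5216 and 4906 in the deficient libraries, without overlap. Among carbohydrate genes, Slc37a4, the glucose 6-phosphate carrier of the endoplasmic reticulum, and Pgd of the pentose phosphate pathway fell, with -0.61 ± 0.18 and -0.58 ± 0.14 by the authors' deposited table.

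Some genes that are higher in female than in male liver rose, and some genes higher in males fell. Of 27 tested female-biased genes 7 rose and none fell, with a median of 0.68. Of 24 tested male-biased genes 5 fell and none rose, with a median of -0.61. All 6 mice were male. The rises included those of Cyp2c40, Cyp2c69, Cyp4a14, Fmo2, Abcd2 and the organic anion carrier gene Slc22a26. Cyp2c40 and Cyp2c69, cytochromes of fatty acid and steroid oxidation, rose 3.94-fold and 7.95-fold. Their log2 fold changes were 1.98 ± 0.25 and 2.99 ± 0.71 by the authors' deposited table. Slc22a26 had 3.45 ± 0.84 by the authors' deposited table, with a large error. The flavin monooxygenase gene Fmo2 had 2647, 2083 and 2664 normalised counts in the wildtype and 5091, 4366 and 3509.9 in the deficient libraries, higher in every deficient library.

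**Figure D3:**
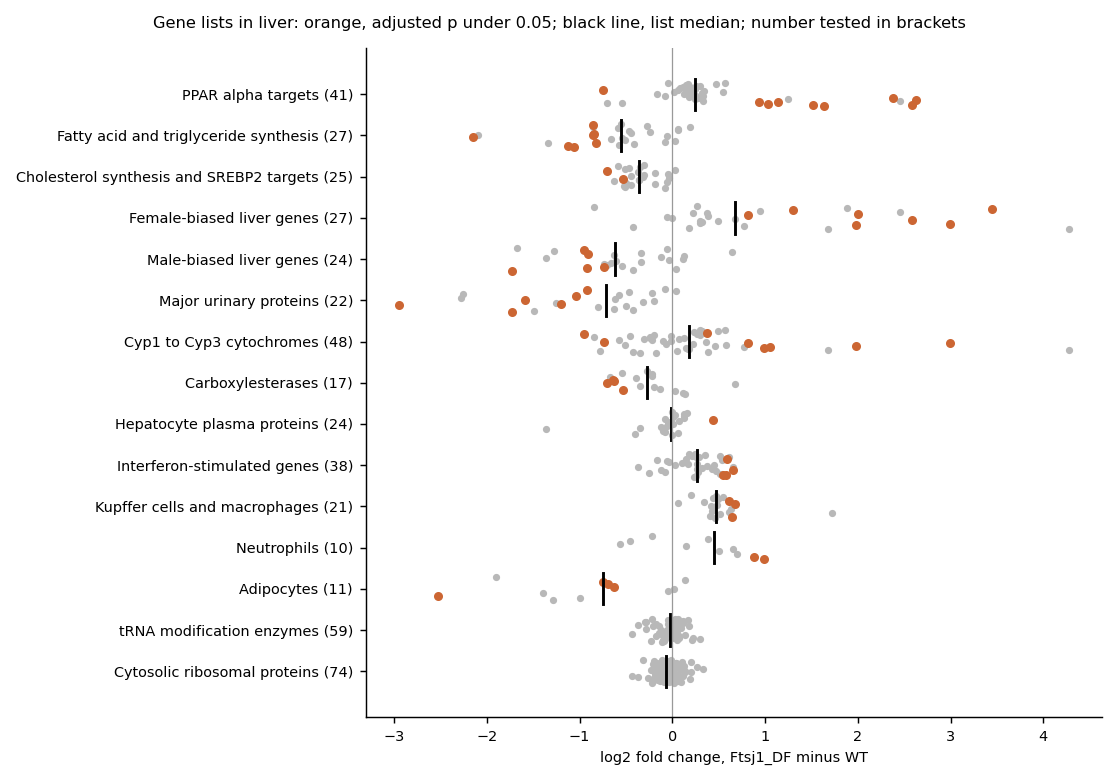
Deposited log2 fold changes (x axis, Ftsj1_DF minus WT) of the tested members of 15 gene lists (rows). Orange points passed an adjusted p of 0.05 and black lines are list medians, which lie at 0.68 for female-biased, -0.61 for male-biased and -0.72 for major urinary protein genes.

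Not all members of the female-biased list moved. Cyp2b9 had 4.28 ± 1.61 by the authors' deposited table and did not pass (adjusted p = 0.168, DESeq2). Cyp3a41a, Cyp2b13 and the repressor gene Cux2 had 0.32 ± 0.23, 0.18 ± 0.20 and 0.23 ± 0.23 by the authors' deposited table. Cux2, a factor found mainly in female liver, had 171, 126 and 140.0 normalised counts in the wildtype and 167, 181 and 167 in the deficient libraries, so that the groups overlapped. The male-biased genes that fell were Mup1, Mup21, the steroid hydroxylase gene Cyp2d9, Susd4 and Cyp2u1. Their log2 fold changes by the authors' deposited table lay between -1.73 (Mup1) and -0.74 (Cyp2d9).

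Of the growth hormone axis few genes passed. Cish, a feedback inhibitor that growth hormone induces within a short time, had 825, 66.9 and 1791 normalised counts in the wildtype and 136, 63.9 and 774 in the deficient libraries. Low and high libraries occurred in both groups, and Cish did not pass. Socs2, Bcl6 and Igf1 had log2 fold changes of 1.17 ± 1.11, 0.70 ± 0.97 and 0.12 ± 0.13 by the authors' deposited table and did not pass. Of 17 tested genes of this axis, the prolactin receptor gene Prlr alone passed, with 0.73 ± 0.20 by the authors' deposited table.

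Major urinary proteins, pheromone carriers that male liver secretes in large amounts, fell in 6 of 22 cases and rose in none. Their median was -0.72, and 21 of the 22 were below 0. Mup7, Mup1, Mup12, Mup8, Mup15 and Mup21 had log2 fold changes of -2.94 ± 0.90, -1.73 ± 0.44, -1.59 ± 0.47, -1.20 ± 0.25, -1.04 ± 0.26 and -0.92 ± 0.22 by the authors' deposited table. Their mean levels ran from 36662 (Mup8) to 1042291 (Mup7) normalised counts by the authors' deposited table. Mup20, a male-specific pheromone carrier also called darcin, had 0.04 ± 0.23 there. The pseudogenes Mup-ps12 and Mup-ps14 fell from 986, 1309 and 611 to 201, 424 and 406 and from 775, 1005 and 473 to 152, 273 and 304 normalised counts. In all, 7 of 19 tested Mup pseudogenes fell and none rose. Mup genes and pseudogenes are near-identical, so single members are uncertain and their summed direction is the safer reading.

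Promoters of 2 called members of this family are shown because the called members of the family all fell. Not every called member has a window in the table used. The 250 bases before the start sites of Mup7 (chr4:60070476-60070725, minus strand) and Mup21 (chr4:62150842-62151091, minus strand) come from RefSeq on GRCm38.p6. Capitals mark a D-box, TTATGNAA or TTACGNAA.
Mup7: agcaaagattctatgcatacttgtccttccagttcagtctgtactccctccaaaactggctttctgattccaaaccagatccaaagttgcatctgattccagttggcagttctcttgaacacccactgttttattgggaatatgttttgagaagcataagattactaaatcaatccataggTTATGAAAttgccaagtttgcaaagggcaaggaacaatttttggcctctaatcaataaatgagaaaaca
Mup21: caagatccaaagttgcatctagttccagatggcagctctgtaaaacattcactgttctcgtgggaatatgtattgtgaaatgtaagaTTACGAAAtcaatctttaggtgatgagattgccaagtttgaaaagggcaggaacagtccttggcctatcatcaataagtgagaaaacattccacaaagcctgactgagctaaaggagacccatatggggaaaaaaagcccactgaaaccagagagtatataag
Counted from the start sites, the matches begin at -69 and -163. Both strands and all possible overlaps were searched, and 11 of the 14 Mup genes with a window held such a match, against 3.58% of all 32851 windows. The Mup windows are copies of each other and count as few independent sequences. Among the 122 risen genes with a window 5 held a D-box (4.10%), and among the 178 fallen genes 8 did (4.49%).

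Most enzymes and carriers that handle drugs and toxins did not pass, and calls went both ways. Within the Cyp1 to Cyp3 cytochromes 6 of 48 rose and 2 fell. Besides Cyp2c40 and Cyp2c69, the risen genes were Cyp2c37, Cyp2c38, Cyp2c68 and Cyp3a13, with log2 fold changes from 0.38 (Cyp3a13) to 1.05 (Cyp2c38) by the authors' deposited table. Close Cyp2c copies can share reads. Among 53 tested genes of conjugation 5 fell and 1, Ugt2b37, rose. Nat8f7, of a family of N-acetyltransferases, had 313, 951 and 567 normalised counts in the wildtype and 64.5, 96.6 and 50.1 in the deficient libraries. The lowest wildtype library held more than 3 times the highest deficient one. Nat8f7 had a log2 fold change of -3.12 ± 0.35 by the authors' deposited table (adjusted p = 2.21e-15, DESeq2), and its relatives Nat8f3 and Nat8 fell to 25% and 55.3% of wildtype. The glutathione transferase gene Gstp3, from 3997, 3299 and 2457 to 1523, 1301 and 1926 normalised counts, and the thiopurine methyltransferase gene Tpmt (-0.45 ± 0.13 by the authors' deposited table) fell as well. The threshold was missed by Ugt2b37 without deficient library 2 (0.56).

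Carboxylesterases, which split ester drugs and lipids, fell in 4 of 17 cases and rose in none, with a median of -0.28. Ces2c, Ces2e and Ces1e had log2 fold changes of -0.70 ± 0.18, -0.64 ± 0.15 and -0.53 ± 0.16 by the authors' deposited table. Ces2d-ps, an annotated pseudogene, had 3157, 3043 and 3005 normalised counts in the wildtype and 1684, 2384 and 1883 in the deficient libraries. Of 20 tested Slc22 and Slco carriers 1 rose, Slc22a26, 2 fell and 17 did not pass, with a median of -0.10. Among those that fell, Slc22a7, which takes up organic anions, went to 41.6% of wildtype. It had 4851, 7157 and 5957 against 2468, 2907 and 2099 normalised counts, without overlap, and -1.27 ± 0.18 (adjusted p = 3.33e-09, DESeq2) by the authors' deposited table. Of 23 tested targets of the oxidant sensor NRF2 none passed, with 16 above 0 and a median of 0.05, and 1 in each direction had an unadjusted p under 0.05 (DESeq2). No longer past the threshold were Ces2d-ps without deficient library 1 (-0.52).

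Of 21 tested secreted liver hormones and binding proteins 3 rose, 1 fell and 17 did not pass, with a median of 0.15. Fgf21, Gdf15 and Fgl1 rose and Serpina12 fell. Gdf15, a stress hormone that curbs appetite, had 675, 1069 and 545 normalised counts in the wildtype and 2040.5, 1835 and 1323 in the deficient libraries. All deficient libraries lay above all wildtype ones, and the log2 fold change was 1.18 ± 0.24 by the authors' deposited table and 1.13 without deficient library 2. The leptin receptor gene Lepr had 654, 589 and 644 against 1871, 813 and 1512 normalised counts. Its wildtype libraries lay close together and deficient library 2 was the lowest of its group. Irs2, which relays the insulin signal, rose with 1.01 ± 0.21 by the authors' deposited table, and so did Fgl1, a protein secreted by hepatocytes (0.90 ± 0.17 by the authors' deposited table). Serpina12, which encodes vaspin, fell (-1.84 ± 0.50 by the authors' deposited table). Errfi1, a brake on the EGF receptor, fell 2.27-fold at high level, with -1.19 ± 0.16 by the authors' deposited table (adjusted p = 4.61e-10, DESeq2). The call was lost for Lepr without deficient library 1 (0.88).

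Fgf21 and Gdf15 were also the 2 of 29 tested ATF4 and CHOP targets that rose, and none fell. The list had 21 members above 0 and a median of 0.26, with 8 above 0 and 0 below at an unadjusted p under 0.05. Its 23 members with reconstructed reads summed to 24157, 23218 and 21965 in the wildtype and 27730, 34509 and 22239 in the deficient libraries. Deficient library 2 was the highest, and deficient library 3 lay among the wildtype ones. The other members of this amino acid and unfolded protein response did not pass, among them Ddit3, which encodes CHOP (0.12 ± 0.15 by the authors' deposited table), and Asns. Asns had 397, 1475 and 1856 normalised counts in the wildtype and 1058, 2711 and 681 in the deficient libraries, an overlapping spread. Nupr1 had 204, 294 and 237 against 265, 6344 and 746, so that its high mean came from deficient library 2 above all. It did not pass, with 3.32 ± 1.16 by the authors' deposited table (adjusted p = 0.111, DESeq2). Chaperones of the endoplasmic reticulum and of the cytosol had 0 of 21 and 0 of 20 members passing by DESeq2, and medians of 0.19 and 0.07. Of these, 0 and 0 were above 0 with an unadjusted p under 0.05, and 1 and 0 below. The 2 endoplasmic reticulum chaperones with reconstructed reads summed to 2505, 2367 and 2182 in the wildtype and 1738, 3669 and 1554 in the deficient libraries.

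The circadian repressor Per2 was the 1 of 17 tested core clock genes that passed. It had 5099.7, 3707 and 2351 normalised counts in the wildtype and 1307, 1712 and 2166 in the deficient libraries. The groups did not overlap, although wildtype library 3 and deficient library 3 were close. Its log2 fold change by the authors' deposited table was -1.11 ± 0.25. Per1 had 4245, 1503 and 2413 against 1219, 660.2 and 686 and did not pass (adjusted p = 0.0616, DESeq2). Arntl, the clock activator also called Bmal1, and the repressor gene Nr1d1 had wide errors, with 0.50 ± 0.64 and -0.30 ± 0.64 by the authors' deposited table. Noct, a rhythmic phosphatase gene, fell from 3132, 2251 and 1687 to 1204, 1388 and 1065 normalised counts. Of 24 glucocorticoid response genes Fkbp5 rose (0.75 ± 0.21 by the authors' deposited table) and Errfi1 fell. The time of day of sampling was not given in the sources used here. Below the threshold lay Per2 without wildtype library 1 (-0.81), and Noct without wildtype library 1 (-0.69).

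Several immune cell genes rose in the deficient livers, with few calls per list. In bulk tissue, more cells of a type and more RNA per cell cannot be told apart. Of 22 listed markers of Kupffer cells and other macrophages 1 is listed at 0, the 21 tested were all above 0, with a median of 0.47, and Vsig4, Cd163 and Ptprc rose. Ptprc, the pan-leukocyte antigen CD45, had 2973, 2402 and 2423 normalised counts in the wildtype and 3315, 4429.7 and 4218 in the deficient libraries. The groups did not overlap. Vsig4 and Cd163, receptors of resident macrophages, had 0.65 ± 0.16 and 0.68 ± 0.17 by the authors' deposited table. Summed over the 8 macrophage markers with reconstructed reads, the level was 11361, 8668 and 11942 in the wildtype and 13217, 16851 and 14916 in the deficient libraries. The myeloid receptor genes Clec7a, Clec12a, Clec4a1, Cd300lb and Cd300ld rose too, Clec7a from 1365, 1083 and 1388 to 2049, 2519.5 and 2174 normalised counts. The part of cell numbers in these values was not tested. The call ended for Ptprc without wildtype libraries 2 or 3 or deficient libraries 2 or 3 (0.53 to 0.57), and Clec12a without wildtype library 2 or deficient library 2 (0.51 to 0.52). Past the threshold no more were Clec4a1 without wildtype library 2 or deficient libraries 2 or 3 (0.57 to 0.66), and Cd300lb without wildtype library 2 or deficient library 2 (0.70 to 0.74).

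Interferon-stimulated genes rose in 4 of 38 cases and fell in none, with a median of 0.27. Ifit1, which binds foreign RNA, had 1836, 2111 and 2054 normalised counts in the wildtype and 3263, 2560.0 and 3098 in the deficient libraries. Rsad2, an antiviral enzyme gene, had 2132, 3208 and 2614 against 4636, 3529 and 4393. Neither gene overlapped between groups, and the differences were small, with 0.57 ± 0.15 and 0.66 ± 0.18 by the authors' deposited table. Ifit2 and Cmpk2 rose by 0.54 ± 0.16 and 0.59 ± 0.18 by the authors' deposited table. All 4 stayed past the threshold without deficient library 2, and none stayed past it without each of the 6 libraries in turn. Of 17 tested genes whose symbols begin with Ifi and a digit, 5 rose and none fell. They were Ifi204, Ifi205, Ifi206, Ifi209 and Ifi211, of a group of DNA sensors. Lost as calls were Ifit1 without wildtype library 1 or deficient library 1 (0.50 to 0.51), and Rsad2 without wildtype libraries 1 or 3 or deficient libraries 1 or 3 (0.52 to 0.65). With 1 library fewer, the call ended for Ifit2 without wildtype libraries 2 or 3 or deficient libraries 1 or 3 (0.44 to 0.54), and Cmpk2 without wildtype libraries 1 or 2 or deficient libraries 1 or 3 (0.47 to 0.60). Short of the threshold fell Ifi204 without wildtype library 2 or deficient library 3 (0.48 to 0.56), and Ifi205 without wildtype libraries 2 or 3 or deficient libraries 2 or 3 (0.61 to 0.73). The threshold was missed by Ifi206 without wildtype libraries 1 or 2 or deficient libraries 1 or 3 (0.59 to 0.72), and Ifi209 without wildtype library 2 or deficient library 3 (0.55 to 0.55). No longer past the threshold were Ifi211 without wildtype library 2 or deficient library 3 (0.61 to 0.62).

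Among granulocyte and lymphocyte genes the calls went both ways. Of 16 listed neutrophil markers 1 is listed at 0 and 10 were tested, of which 2 rose and 8 did not pass. Among the 10, 7 were above 0 and 3 below, with a median of 0.45. The 2 risen genes, S100a8 and S100a9, the calprotectin subunits of neutrophils, had 148, 105 and 121 and 210.3, 139 and 159 normalised counts in the wildtype libraries. In the deficient libraries they had 261, 283 and 199 and 359.9, 296 and 283, without overlap. The 9 reconstructed neutrophil markers together had 3439, 1566 and 2194 against 2524, 2830.1 and 2396, which overlapped. Gzmb and Prf1, killing proteins of cytotoxic cells, rose from 83.5, 77.5 and 77.2 to 256, 128 and 187 and from 63.4, 39.7 and 38.6 to 97.4, 153 and 105 normalised counts. Of 22 tested T and natural killer cell markers 20 were above 0 (median 0.32), 2 rose and 1 fell. Of 17 tested B and plasma cell markers 16 were above 0 (median 0.21), and the 1 below, Ighm, was the only call. The antibody heavy chain gene Ighm and the T helper antigen gene Cd4 fell, with 3848, 2832 and 2756 against 1292, 1391 and 2563 and 359.8, 479 and 618 against 219.6, 325 and 259.6. Endothelial markers had 0 of 20 members passing (DESeq2) and a median of 0.17, with 2 above 0 and 0 below at an unadjusted p under 0.05. Stellate cell and fibroblast markers had a median of -0.03, and 1 of 20 tested fell. The call was lost for S100a8 without wildtype library 2 (0.86), and S100a9 without wildtype library 2 or deficient library 1 (0.74 to 0.76). Below the threshold lay Gzmb without deficient library 1 (0.98), and Prf1 without wildtype library 2 or deficient library 2 (1.06 to 1.14). The call ended for Ighm without wildtype library 1 or deficient libraries 1 or 2 (-0.71 to -0.67), and Cd4 without wildtype libraries 2 or 3 or deficient libraries 1 or 3 (-0.85 to -0.65).

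**Figure D4:**
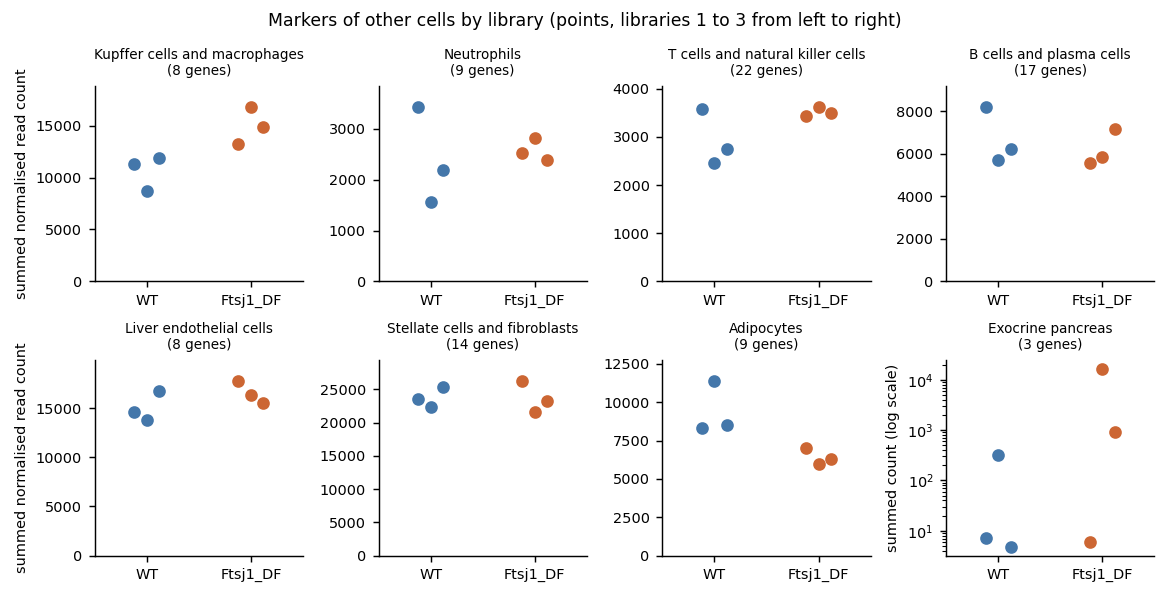
Summed normalised read counts (y axes) of reconstructed markers of 8 other cell types in the 3 wildtype (blue) and 3 deficient (orange) liver libraries. Macrophage sums do not overlap between genotypes (11361, 8668 and 11942 in the wildtype, 13217, 16851 and 14916 in the deficient libraries), and the exocrine pancreas panel, on a log axis, holds 6.04, 16423 and 904 in the deficient libraries.

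Transcripts of exocrine pancreas, an organ that lies against the liver, stood out in 3 of the 6 libraries. Amy2b, a pancreatic amylase, had 5.54, 309 and 4.83 normalised counts in the wildtype and 5.37, 14048 and 637 in the deficient libraries. Reg2, a secreted protein of acinar cells, had 1.01, 3.1 and 0 against 0.671, 1889 and 248, and Prss1, a trypsinogen, had 0.503, 11.8 and 0 against 0, 485 and 19.2. High counts thus occurred in deficient library 2, and lower ones in deficient library 3 and wildtype library 2. Of 25 listed pancreas genes 14 were tested and 2 are listed at 0, and all 14 had log2 fold changes of 4.09 or more by the authors' deposited table, with a median of 5.83. The lowest mean level of any tested gene was 17.5 normalised counts. Low genes such as Prss1 could reach such a level through deficient library 2. Their shared direction can thus follow from that library and is not read as a difference between genotypes. Reg2 alone passed, with 8.90 ± 2.25 by the authors' deposited table (adjusted p = 0.00672, DESeq2). Nupr1 and the amino acid carrier gene Slc38a5, both also known from pancreas, were highest in the same library. The part of pancreas RNA in those 2 genes was not tested. Past the threshold no more were Reg2 without deficient library 2 (6.38).

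Adipocyte genes were lower, with 4 of 11 tested fallen and a median of -0.75. Of 15 listed, 1 is listed at 0. The 9 reconstructed members summed to 8298, 11383 and 8515 in the wildtype and 7028, 5977 and 6285 in the deficient libraries. Cfd, which encodes adipsin, had 1308, 3168 and 1011 normalised counts in the wildtype and 248, 333 and 376 in the deficient libraries. Its log2 fold change by the authors' deposited table was -2.52 ± 0.53, with an adjusted p of 0.000376 by DESeq2. Adrb3 fell from 1438, 1912 and 1752 to 1134, 1166 and 1004, and Car3 had -0.69 ± 0.21 by the authors' deposited table. The defining fat cell genes did not pass: Adipoq had 239, 72.5 and 106 against 24.8, 44.4 and 106, and Plin1 had 209, 77.5 and 111 against 10.1, 39.1 and 103, with overlap in both. Car3 and Cidec are also made by hepatocytes. The part of fat tissue in these values was not tested. Lost as calls were Cfd without wildtype library 2 (-1.86), and Adrb3 without wildtype library 2 or deficient library 3 (-0.56 to -0.53).

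Hepatocyte markers were the abundant messages of a liver. Alb, Ttr, Apoa1, Cps1, Cyp2e1 and Serpina1a had mean levels from 760862 (Ttr) to 18903789 (Alb) normalised counts by the authors' deposited table. Alb had a log2 fold change of -0.01 ± 0.15 there, and none of the 6 passed. Of 24 tested plasma protein genes 1, the vitamin E carrier gene Ttpa, rose, and the median was -0.01. Pericentral and periportal genes, which mark the 2 ends of the liver lobule, had medians of 0.01 and -0.04. Tbx3, a pericentral transcription factor gene, and Ctsc, a lysosomal protease gene, rose, and Arg1, the last enzyme of the urea cycle, fell, with 0.75 ± 0.15, 0.76 ± 0.14 and -0.39 ± 0.12 by the authors' deposited table. Bhmt, which remethylates homocysteine, was the other of 40 urea cycle and amino acid genes to fall (-0.64 ± 0.20 by the authors' deposited table).

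Other lists had few calls or none. Pltp, which moves phospholipids between lipoproteins, was the 1 of 22 lipoprotein genes that fell, with -0.92 ± 0.16 by the authors' deposited table. Of 36 coagulation and complement genes Cfd and C4a fell, and of 27 acute phase genes Orm3, an orosomucoid, fell. C4a and Orm3 had -0.44 ± 0.13 and -0.80 ± 0.23 by the authors' deposited table. Rrm2, a subunit of ribonucleotide reductase, was the 1 of 33 cell cycle genes that fell (-0.89 ± 0.23 by the authors' deposited table). No call was made by DESeq2 among 29 immediate early genes, 17 genes of one-carbon and serine metabolism or 14 cholangiocyte markers. At an unadjusted p under 0.05 the immediate early genes had 7 above and 0 below 0, the one-carbon genes 1 above and 2 below, and the cholangiocyte markers 1 above and 0 below. With 1 library fewer, the call ended for Orm3 without wildtype libraries 1 or 3 or deficient libraries 1 or 2 (-0.80 to -0.57), and Rrm2 without wildtype library 1 or deficient library 2 (-0.71 to -0.65).

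Several of the clearest differences belonged to none of the lists. Trhde, a peptidase that degrades thyrotropin-releasing hormone, fell from 1101, 886 and 717 to 248, 202 and 358 normalised counts. Acpp, an acid phosphatase, fell from 3852, 3341 and 3239 to 1122, 809 and 1566, and the water channel gene Aqp4 from 3441, 2671 and 2404 to 966, 685 and 1339. All 3 kept wide gaps between the groups. The neurotrophin receptor gene Ntrk2 fell from 443, 379 and 359.6 to 171, 149 and 137, and the inhibitory G protein gene Gnai1 from 660.2, 725 and 746 to 268, 363 and 271. The forkhead factor gene Foxq1 had 5991, 2308 and 5708 against 1127, 1073 and 1650.2, with wildtype library 2 well below its group. On the rising side, Rab30, a small GTPase of the Golgi, went from 1804, 2116 and 2172 to 6583, 4120.5 and 4250.2, and Ndrg1 from 1171, 1310.4 and 1530.2 to 4004, 2312 and 3445. Nt5e, which encodes the AMP-hydrolysing enzyme CD73, went from 1808, 2833 and 2136 to 5733, 4547 and 3938, and Gpat3, an acyltransferase of triglyceride synthesis, from 657, 780.4 and 886 to 1558, 1317 and 1464. The adjusted p of these genes (DESeq2, by the authors' deposited table) ran from 1.07e-10 for Trhde to 0.00453 for Foxq1. Short of the threshold fell Foxq1 without wildtype library 1 (-1.64).

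Long non-coding RNAs were among the largest falls and could be compared with the second kind of library. Gm31121 had 575, 779 and 485 normalised counts in the wildtype and 32.2, 108 and 66.4 in the deficient libraries, and Gm12718 had 1358, 1911 and 1086 against 165, 206 and 335. The authors' deposited table for each kind of library put these 2 at -3.18 ± 0.33 and -2.64 ± 0.26 in poly-A libraries, and -3.32 ± 0.40 and -3.15 ± 0.38 in libraries depleted of ribosomal RNA. Gm32468 and Gm35696 fell and Gm32540 rose in both kinds. By the authors' deposited table of each kind, the 5 lay within 0.6 of each other on the log2 scale between the kinds of library. Of the 419 called genes 49 are listed in the liver lncRNA table, 48 of them with an adjusted p. There, 14 of the 48 passed, all with the same sign as in poly-A, against 1.02% of the 3638 genes tested in that table, and 44 of the 48 had the same sign. The labels give both kinds of library the same mouse numbers, so the kinds are not independent animals. Neat1, the scaffold of paraspeckles, fell in poly-A with -0.86 ± 0.25 but had 0.08 ± 0.26 in the depleted libraries and did not pass there, by the authors' deposited table of each kind. The host gene Snhg11 fell in poly-A, from 1271, 1387 and 1255 to 574, 667 and 699.

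Few of the liver's called genes were called in the other organs of the same mice. Of the 419, 20 passed with the same sign in kidney, 7 in heart, and Ftsj1 alone in brain and spleen. Genes passing in both made up 5.73% of the liver's and 10.4% of the kidney's called genes, and 1.91% of the liver's and 6.90% of the heart's. Of all tested genes, 0.987% passed in kidney, 0.541% in heart, 0.0607% in brain and 0.0741% in spleen by the authors' deposited table. A gene that passes in 1 organ and not in another need not differ between them, so the difference of log2 fold changes was tested for every gene with an adjusted p in both organs. It passed (normal test, Benjamini-Hochberg) for 167 genes against kidney (0.93%), 98 against brain (0.574%), 60 against heart (0.342%) and 55 against spleen (0.311%). The organs come from the same mice, so the errors of the 2 fold changes may be correlated. Of the 319 called liver genes tested in all 4 other organs, 163 differed from none of them and 9 from all 4. The 4 differences of a gene share its liver value, by which it was also called, so they are not separate support.

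The 9 genes that differed from all 4 other organs were Nat8f7, Dpy19l3, Serpine2 and Hmgn3, which fell in liver, and Rab30, Ndrg1, Rab11fip4, Irs2 and Lepr, which rose. Nat8f7 had -3.12 ± 0.35 in liver and -0.27 ± 0.14 in kidney, where it did not pass, by the authors' deposited table (adjusted p of the difference = 3.88e-10, normal test). Serpine2, a protease inhibitor gene, had 2758, 2843 and 3543 normalised counts in wildtype and 909.8, 1575 and 1043 in deficient liver. Its log2 fold change by the authors' deposited table was -1.37 ± 0.21 in liver and between -0.18 ± 0.12 (heart) and 0.28 ± 0.21 (spleen) elsewhere. Lepr had 1.15 ± 0.25 in liver and 0.06 ± 0.12 in kidney by the authors' deposited table. Abcd2 rose in liver (1.30 ± 0.27) and fell in heart (-0.74 ± 0.17) by the authors' deposited table, and the difference passed (adjusted p = 1.5e-06, normal test). Cyp4a32 rose in liver and fell in kidney, with 1.03 ± 0.22 and -0.50 ± 0.14 by the authors' deposited table (adjusted p of the difference = 5.17e-06, normal test).

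**Figure D5:**
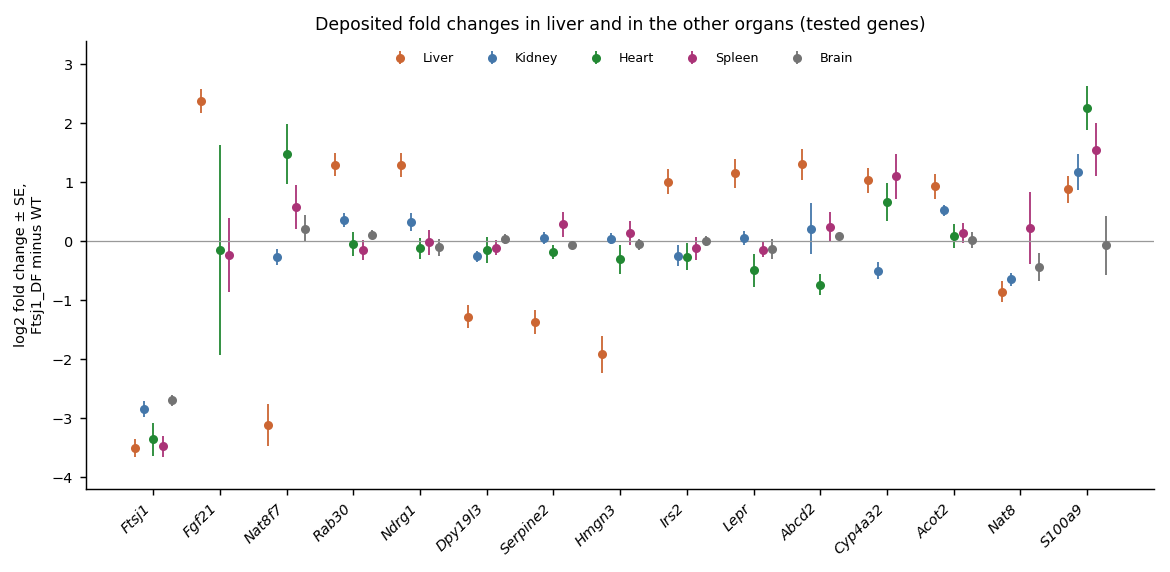
Deposited log2 fold changes ± standard error (y axis, Ftsj1_DF minus WT) of 15 genes in 5 organs (colours), where tested. Ftsj1 is low in all 5, Serpine2 and Hmgn3 lie below -1 in liver alone, and Acot2, Nat8 and S100a9 have the same sign in liver and kidney.

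A smaller group of genes passed in liver and another organ with the same sign. Cyp4a10, Acot1 and Acot2 rose in liver and kidney. Their kidney values by the authors' deposited table were 0.79 ± 0.15, 0.57 ± 0.15 and 0.52 ± 0.10, and the differences from liver did not pass. Slc22a26 rose and Nat8 fell in both organs, with 1.01 ± 0.11 and -0.64 ± 0.11 for kidney by the authors' deposited table. S100a8 and S100a9 rose in liver, kidney and heart, with heart values of 1.83 ± 0.44 and 2.26 ± 0.37 by the authors' deposited table. Gnai1 fell in liver and heart and differed between liver and kidney (-0.08 ± 0.09 by the authors' deposited table, adjusted p of the difference = 8.22e-06, normal test).

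The listed genes of translation and respiration, Ftsj1 aside, had no calls. None of 59 other tested tRNA modification enzymes, 34 aminoacyl-tRNA synthetases, 74 cytosolic ribosomal proteins, 37 ribosome biogenesis and snoRNP proteins, 72 nuclear respiratory chain subunits and 15 mitochondrially encoded transcripts passed DESeq2's adjusted p of 0.05. Medians were -0.02, -0.05, -0.07, 0.13, -0.12 and 0.04 in the same order. At an unadjusted p under 0.05, 0, 0, 1, 8, 0 and 1 of them lay above 0, and 2, 2, 1, 0, 1 and 1 below. The 30 ribosome biogenesis and snoRNP genes with reconstructed reads were together highest in deficient library 2. Their sums were 80139, 84041 and 86792 in the wildtype and 85441, 104063 and 84543 in the deficient libraries. Of the respiratory chain subunits 65 of 72 had a log2 fold change below 0, all of them small. Poly-A libraries measure the level of these messages and not the modification of transfer RNA.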

How the data were processed

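RNA of whole liver was pulverised in a bead mill, extracted with phenol and made into stranded poly-A libraries, per the labels' protocols. The submitters' processing notes name GRCm39, featureCounts, Subread 2.0.3 and DESeq2, with settings for strand and shared reads not given in the sources used here. The authors deposited, per gene, a mean level (a normalised read signal over the 6 libraries), a log2 fold change with its standard error on the log2 scale, a Wald score, a p-value and an adjusted p-value. These were used as deposited, without a new count test.

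Whole reads per library were recovered by searching sets of 6 whole numbers within a limited range around the counts expected from the deposited values. A set had to give the deposited mean level and, through a refit of a genotype-only model, the deposited fold change. The refit took its dispersion from the deposited standard error. That a solution is the only one holds within the range searched. Leaving out a library kept size factors, dispersions and the threshold. Groups came from the labels. The unnamed row, 4.79e-07% of the summed level, was left out.

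The genes compared and the 58 gene lists were chosen with earlier results of these data known. Of 1646 listed symbols 1596 matched by symbol and 35 by a RefSeq synonym. Named were Ftsj1, the 15 called genes per direction with the largest log2 fold change among levels of at least 100, the 15 with the smallest adjusted p, up to 6 called members of each list (2 abundant members of lists with none), called members of families with 3 or more, up to 12 genes called in a second organ and up to 8 long non-coding RNAs, some of which the text leaves out. Other genes, such as uncalled members of lists with calls (Fasn, Cish, Per1, Adipoq) and Pnpla5, were chosen after their values were seen. Python 3.11.15, numpy 2.4.6, pandas 2.3.3, scipy 1.17.1 and numba 0.67.0 were used. A few genes are not reported here.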

Additional observations from a re-analysis of the deposited data

Results flagged for a closer look

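The change between genotypes differed between liver and another organ for 167 genes against kidney, 98 against brain, 60 against heart and 55 against spleen (normal test of the difference between deposited log2 fold changes, Benjamini-Hochberg adjusted). For 9 genes called in liver the difference passed against all 4 organs. The 4 differences of a gene share its liver value, by which it was also called, so they are not separate support. In liver, the authors' deposited table gave log2 fold changes of -3.12 for Nat8f7, -1.92 for Hmgn3, -1.37 for Serpine2, -1.28 for Dpy19l3, 1.30 for Rab30, 1.29 for Ndrg1, 1.15 for Lepr, 1.01 for Irs2 and 0.87 for Rab11fip4. Dpy19l3, a C-mannosyltransferase gene, had 3745, 3715 and 3309 normalised counts in wildtype and 1068, 1572 and 1815 in deficient liver, and Rab11fip4 had 2186, 2028 and 1936 against 4189, 3332 and 3700.1. Groups of 3 libraries are too small for the gap test of single values.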

How the results depend on the processing

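The count of 419 genes became 233 at an adjusted p of 0.01, 629 at 0.1, and 138 when a log2 fold change of at least 1 in either direction was also asked. With the deposited statistic read against a t distribution with 4 degrees of freedom 0 genes passed, Ftsj1 at -3.51 included, and 751 had an unadjusted p under 0.05, where the authors' DESeq2 reading has 2122. The same reading with 8 degrees of freedom left 0 differences against each of brain, heart, kidney and spleen, with 652, 738, 693 and 735 at an unadjusted p under 0.05. Adjusting over all named genes with a p gave 334, asking for a mean level of 10 or 100 gave 414 or 404, and centring on the median of genes at 100 or more gave 419, of which 158 were above and 261 below. Leaving out 1 library, chosen after seeing the data, gave 185 to 270 reconstructed genes past the threshold, the lowest without wildtype library 2. Of the 35 reconstructed called members of lists, 22 stayed without deficient library 1. The median of the neutrophil list went from 0.45 to 0.14 at a mean level of 100 or more. No paired analysis was possible because the brothers are known by mouse number and the reconstructed libraries by genotype only. Depth limits lower genes first, since the shallowest library had a size factor 4.80 times below the deepest.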
